A study of Mus musculus with 4 samples.

Results

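DNA replication genes encode the machinery that copies the genome in S phase, so their transcripts are most abundant where cells are still dividing. The group described here holds 38 such genes, from the helicase that opens the double helix to the enzymes that supply its building blocks. They were taken from a list of gene names, each by the probe set with the highest mean signal and a single gene symbol, out of 19938 genes measured this way. All 38 were found on the array.

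Each array held RNA from 1 region of the mouse brain at embryonic day 17.5, dissected from animals of the outbred ICR stock with no other genotype or treatment given. The regions were the cerebellum (pool of 13 mice), the olfactory bulb (14 mice), the pontine nucleus (15 mice) and the superior colliculus (16 mice). With 1 pooled array per region there were no replicates, so no test was possible, values carry no SD, and a region cannot be told apart from its single preparation. Per the submitters' processing notes the Affymetrix Expression Console was used, and the deposited values were read as log2 signals, in which 1 unit is a 2-fold difference. Marker genes of the regions were highest where they belong for 6 of 6 cerebellar, 6 of 6 bulb and 5 of 5 pontine genes, and for 4 of 5 collicular genes, with Lhx1 at 11.18 in the cerebellum and 10.05 in the superior colliculus. A signal in whole tissue cannot tell fewer dividing cells from less RNA per dividing cell.

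Replication begins when the origin recognition complex, with Cdc6 and Cdt1, loads the Mcm2 to Mcm7 ring onto DNA, a step called licensing that geminin (Gmnn) restrains. Cdc45 and the GINS proteins then turn the ring into an active helicase, and polymerases follow it, held on the template by the sliding clamp Pcna. Many of these genes are transcribed under E2F factors, which are held back in resting cells by the retinoblastoma family. At this age the external granule layer of the cerebellum holds dividing granule cell precursors, and the olfactory bulb receives young interneurons from a germinal zone that extends towards it, while most neurons of the pontine nucleus and the superior colliculus have left the cell cycle.

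Short sequence words of the kind that E2F factors recognise were searched for in the start regions of these genes. The matches are shown because the group's signals moved together across the regions and because E2F genes are measured below. RefSeq promoter windows of assembly GRCm38.p6, from 250 bases before a transcript start to 50 after it, were available for 31 of the 38 genes. The letters TTTCCCGC or TTTGGCGC, on either strand, stood in the windows of 9 of the 31 (29.0%), against 3.46% of 8759 genes with a level above the floor defined below and 1.80% of all 27025 genes with a window. The share was 5 of 14 (35.7%) for other subunits of the same complexes, 5 of 18 (27.8%) for genes of entry into S phase and 5 of 34 (14.7%) for other replication pathway genes, lists described below. Of those 9, 5 had a match before the start (Mcm5, Mcm6, Mcm7, Pola1 and Cdc6) and 4 only from the start on (Mcm3, Cdt1, Pold1 and Rfc3). Capitals mark the matches in the following upstream stretches, written 5′ to 3′ on the gene's strand.
Mcm6, chr1:128359736-128359835, minus strand: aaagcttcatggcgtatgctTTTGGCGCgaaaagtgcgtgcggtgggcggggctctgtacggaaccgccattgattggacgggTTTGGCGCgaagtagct
Mcm5, chr8:75109329-75109388, plus strand: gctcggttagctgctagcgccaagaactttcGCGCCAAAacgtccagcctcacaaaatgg
Mcm7, chr5:138172019-138172078, minus strand: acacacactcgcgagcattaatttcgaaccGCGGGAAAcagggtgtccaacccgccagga
Pola1, chrX:93632266-93632325, minus strand: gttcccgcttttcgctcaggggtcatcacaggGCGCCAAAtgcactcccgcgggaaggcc
Cdc6, chr11:98907981-98908040, plus strand: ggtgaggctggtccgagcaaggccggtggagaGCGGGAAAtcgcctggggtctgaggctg
Mcm6 had a pair of matches, 110 and 47 bases before the start, and the others 1 each. The promoter of Mcm2, the gene with the widest regional difference in the group, held neither E2F word. It held TTTGAA, the letters of the CHR element of mitotic genes, 70 bases before its start, in capitals here.
Mcm2, chr6:88898781-88898880, minus strand: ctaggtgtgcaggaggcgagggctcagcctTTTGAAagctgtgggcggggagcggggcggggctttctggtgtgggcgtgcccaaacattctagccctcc
The CHR letters were in 3 of the 31 windows (9.68%), against 13.5% of genes above the floor, and CCAAT, the NF-Y word, in 18 (58.1%), against 43.0%. Both strands were searched for each, and in the windows of the group no match of one motif overlapped a match of another. A match in letters is a description of the sequence and not a binding site. The 9 genes with E2F letters had a median difference between the cerebellum and the superior colliculus of 0.97 log2 units, and the 22 without them 0.89.

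The signal of all 38 genes was higher in the cerebellum than in the superior colliculus, which 52.6% of all genes measured share. All 38 were also higher in the cerebellum than in the pontine nucleus (56.3% of all genes) and in the olfactory bulb than in the superior colliculus (51.0%). Both the cerebellum and the bulb lay above both other regions for 36 of the 38, against 24.0% of all genes measured. The full order cerebellum, olfactory bulb, pontine nucleus, superior colliculus was found for 21 of the 38, against 5.21% of all genes. The cerebellum was highest for 34, against 28.7%, and the superior colliculus lowest for 25, against 21.7%. In 17 of the 38 the cerebellum exceeded the superior colliculus by at least 1 log2 unit, against 1.88% of all genes, and in none was it lower by that amount, against 1.54%. A difference of 1.5 log2 units was reached by 4 genes, Mcm2, Mcm3, Mcm6 and Uhrf1, against 0.828%. The full order with every neighbouring step at least 0.25 was held by 5, Mcm3, Mcm4, Mcm6, Mcm7 and Pole, against 0.326%.

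A level floor of 8.56, the median of all gene levels, was passed on at least 1 array by 34 of the 38 genes and by 10908 genes in all. Orc1, Cdc6, Gmnn and Fen1 did not pass it. Above the floor the full order was held by 21 of 34 genes, beside 5.06% of all genes above it, and the 1-unit difference by 17 of 34, beside 3.08%, with 2.63% of those genes different by 1 unit the other way. Above it the cerebellum was highest for 33 of 34 (17.9% of genes), the superior colliculus lowest for 24 (22.4%), and the pair of high regions above the other pair for 32 (20.9%). The stricter difference of 1.5 units was reached by 4 (1.45%) and the order with steps of 0.25 by 5 (0.550%). Each of the 34 was higher in the cerebellum than in the superior colliculus (42.5% of genes above the floor) and the pontine nucleus (44.0%), and in the bulb than in the superior colliculus (52.5%).

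**Figure D1:**
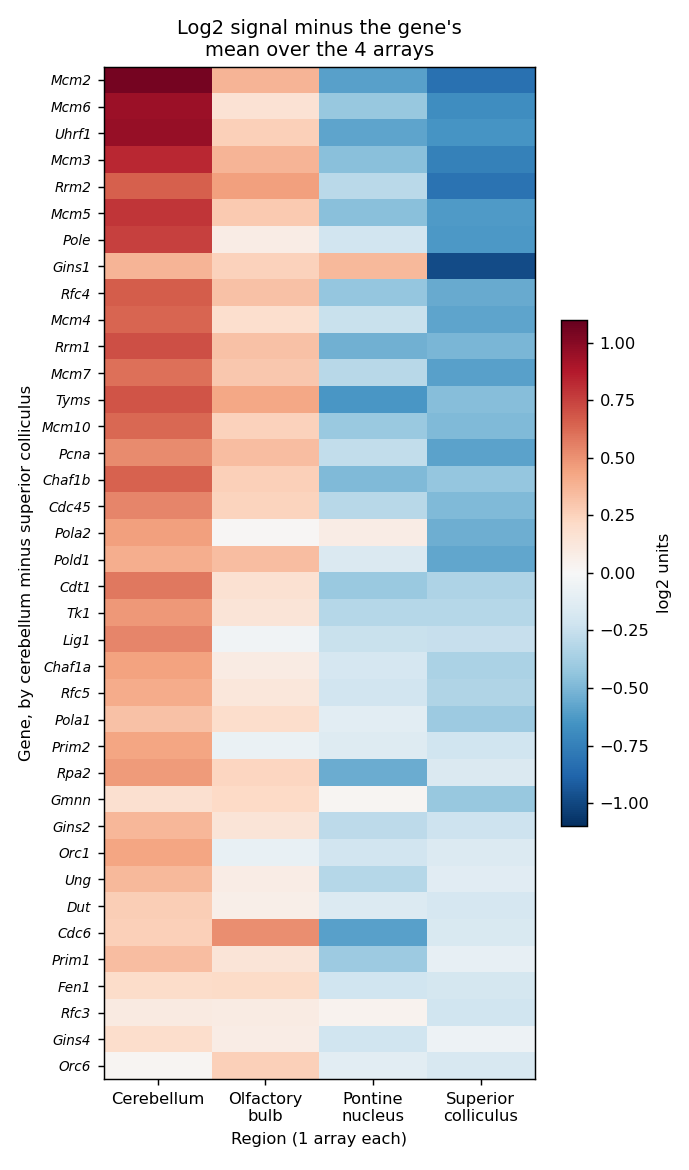
Each row is 1 of the 38 genes and each column 1 array; colour gives the log2 signal minus the gene's own mean over the 4 arrays, with rows ordered by the cerebellum minus superior colliculus difference, from 1.87 for Mcm2 to 0.20 for Orc6. The left columns are mostly red and the right columns mostly blue, and Gins1 and Pola2 are the rows in which the pontine nucleus lies above the bulb.

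The steps between neighbouring regions were unequal. The median difference over the 38 genes was 0.30 log2 units for cerebellum minus bulb, 0.475 for bulb minus pontine nucleus, and 0.10 for pontine nucleus minus superior colliculus. Over all genes above the floor the same medians were -0.05, 0.02 and 0.00. The step from bulb to pontine nucleus was the widest for 27 genes, the step from cerebellum to bulb for 7, and the last step for 4. The cerebellum was above the bulb for 34 genes, beside 50.8% of all genes and 39.4% of those above the floor, and the bulb above the pontine nucleus for 36, beside 55.1% and 52.4%.

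A difference of 1 log2 unit was rarer in these steps. None of the 38 reached it for cerebellum over bulb (1.23% of all genes, 2.06% above the floor). Tyms and Cdc6, the latter with a pontine value in the background range given below, reached it for bulb over pontine nucleus (3.16% and 5.20%), and Gins1 for pontine nucleus over superior colliculus (1.06% and 1.72%). Across the wider pairs it was reached by 11 genes for cerebellum over pontine nucleus (2.72% and 4.49%) and by 4 for bulb over superior colliculus (1.78% and 2.94%).

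For the size of steps that noise alone can give there are 2 guides. The first is a dim background set of 207 genes for beta defensins and vomeronasal receptors, 95% of which differed by at most 0.40, 0.43 and 0.37 in these 3 steps. Of the 38 genes, 12, 20 and 8 exceeded those limits, and 35 exceeded the limit of 0.35 for cerebellum against superior colliculus. The 3 genes within it were Orc6, Gins4 and Rfc3. The background set itself had medians of 0.12, -0.01 and -0.02 in the 3 steps and 0.07 for cerebellum minus superior colliculus. These dim genes thus read slightly higher on the cerebellar array than on those of the bulb and the superior colliculus. The second is 643 genes with 2 or more probe sets above the floor, whose 2 brightest differed by a median of 0.06 in cerebellum minus superior colliculus, with 95% within 0.389. For the 3 steps this second limit was 0.35, 0.48 and 0.468, exceeded by 16, 19 and 3 of the 38 genes. Neither guide contains differences between animals or dissections. The last step was thus within the first guide's limit for 30 of the 38 genes and within the second's for 35. Its sign varied: the pontine nucleus was the higher for 25 genes (44.6% of all genes and 49.5% above the floor), the superior colliculus for 12, and the regions were tied for Tk1.

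**Figure D2:**
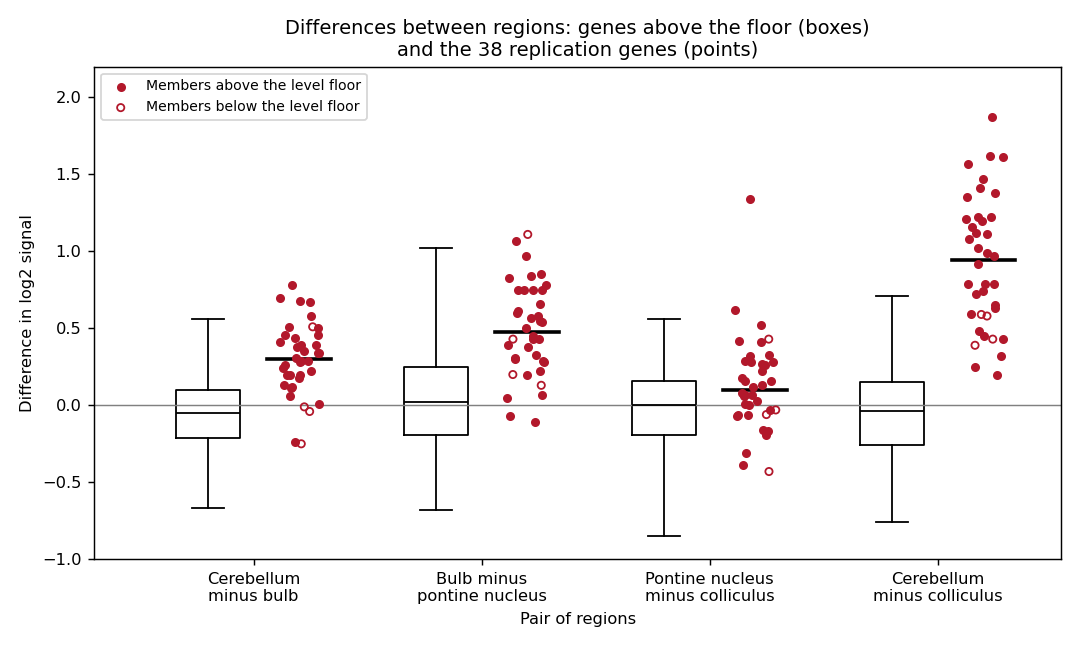
The vertical axis is the difference in log2 signal between a pair of regions; boxes show the quartiles of 10908 genes above the level floor, with whiskers at the 5th and 95th percentiles, and points show the 38 replication genes (open where below the floor), with a bar at their median. The points centre on 0.30, 0.475 and 0.10 for the neighbouring pairs and on 0.945 for cerebellum minus superior colliculus.

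In what follows, levels are given in log2 signal in the order cerebellum, olfactory bulb, pontine nucleus and superior colliculus. The 6 helicase genes Mcm2 to Mcm7 behaved alike. All 6 held the full order and all 6 passed the 1-unit difference, which ranged from 1.20 to 1.87. Mcm2 (probe set 10546163) read 10.95, 10.27, 9.30 and 9.08, so the cerebellum exceeded the superior colliculus 3.66-fold. Mcm6, with the matches printed above, read 10.30, 9.52, 8.95 and 8.68, a 3.07-fold difference, and the cerebellum stood apart from the bulb by 0.78, the widest such step in the group. Mcm7 had the smallest difference of the 6, with 10.87, 10.56, 9.96 and 9.67. Mcm3, Mcm4 and Mcm5 differed by 1.57, 1.22 and 1.41 between cerebellum and superior colliculus. The superior colliculus therefore had the lowest signal of every subunit of the ring, but only by 0.16 to 0.33 from the pontine nucleus. Those steps lay within both limits given above for the last step, 0.37 and 0.468.

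The 5 genes of origin licensing had a median difference of 0.58 between cerebellum and superior colliculus, and none of them held the full order. Cdt1, which brings the ring to the origin, read 9.37, 8.96, 8.38 and 8.45, with the low regions separated by 0.07. Orc6, the smallest subunit of the origin recognition complex, read 10.11, 10.35, 9.97 and 9.91, and its cerebellum to superior colliculus difference of 0.20 was the smallest of the 38. The other 3 lay below the level floor on every array. Orc1, a subunit that binds ATP, read 7.18, 6.67, 6.54 and 6.60, and the cerebellum alone was set off from the rest. Cdc6, the ATPase that loads the ring, read 8.16, 8.41, 7.30 and 7.73. Its bulb signal was the highest, and its pontine value lay within the level range of the background set, whose 95th percentile was 7.32, so the step of 1.11 between them rests on a value not set apart from background. Gmnn, the inhibitor of Cdt1, read 6.64, 6.68, 6.48 and 6.05, and these values, like those of Orc1, lay within that range on every array. Differences of such dim genes can be compressed.

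Helicase activation genes differed widely among themselves. Cdc45 and Mcm10, a factor that helps to start the activated helicase, both held the full order, with cerebellum minus superior colliculus of 1.02 and 1.12. Gins1 read 8.72, 8.60, 8.71 and 7.37. Its first 3 regions lay within 0.12 of each other and the superior colliculus alone was low, by 1.34 from the pontine nucleus, the widest such step of the 38. Gins2 read 9.71, 9.49, 9.06 and 9.12. Gins4 read 10.65, 10.54, 10.24 and 10.40, a spread of 0.41 between its highest and lowest array. In both of these the pontine nucleus was the lowest region, by 0.06 and 0.16.

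Among polymerase and primase genes, Pole, the catalytic subunit of the leading strand polymerase, differed the most. It read 9.95, 9.28, 8.99 and 8.57, with each neighbouring step at least 0.25. Pold1, the catalytic subunit of the lagging strand polymerase, differed by 0.97 between cerebellum and superior colliculus, but by only 0.06 between cerebellum and bulb. Pola1 and Pola2 form polymerase alpha, which together with the primase subunits Prim1 and Prim2 lays down the first stretch of each strand. Pola2 read 9.64, 9.20, 9.27 and 8.65, with the bulb and the pontine nucleus 0.07 apart. Prim1 read 9.44, 9.24, 8.70 and 9.01 and was lowest in the pontine nucleus. Pola1 and Prim2 held the full order, with differences of 0.72 and 0.65.

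Pcna and the 3 listed genes of its loader held the full order. Pcna read 12.04, 11.86, 11.25 and 10.93 on the probe set used and 12.04, 11.85, 11.23 and 10.94 on its second probe set, a 2.16-fold and a 2.14-fold difference. Both probe sets carry the same accessions in the annotation, and RefSeq lists the pseudogenes Pcna-ps1 and Pcna-ps2, so the signal of near-identical copies cannot be set apart here. Rfc4, a loader subunit, read 10.96, 10.62, 9.87 and 9.74. Rfc3 of the same complex read 9.70, 9.69, 9.64 and 9.38, with the first 3 regions within 0.06. Rfc5 lay between them, with a difference of 0.74.

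Nucleotide supply genes had their main step between the bulb and the pontine nucleus. Rrm1 and Rrm2 encode the subunits of ribonucleotide reductase, which makes deoxyribonucleotides. Rrm2 read 10.39, 10.19, 9.44 and 8.92, a 2.77-fold difference between the outermost regions, and Rrm1 read 11.63, 11.24, 10.39 and 10.42. Thymidylate synthase, Tyms, read 9.80, 9.54, 8.47 and 8.64, a step of 1.07 from bulb to pontine nucleus. RefSeq lists a pseudogene of it, Tyms-ps. Dut, which removes dUTP from the pool, read 9.69, 9.49, 9.27 and 9.24, the smallest difference of the group of 5 at 0.45.

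Of the 2 members with several probe sets, Pcna and thymidine kinase, Tk1, only Tk1 had a value that rested on the probe set chosen. The brighter probe set (10582809) read 9.18, 8.84, 8.39 and 8.39, a 1.73-fold difference between cerebellum and superior colliculus. The dimmer one (10393431) read 9.19, 8.78, 7.71 and 7.74, a 2.73-fold difference. With the dimmer probe sets, 18 instead of 17 of the 34 genes above the floor passed the 1-unit difference. The 2 probe sets of Tk1 were close in the cerebellum and the bulb and parted in the other regions. Both put the cerebellum first and the bulb second.

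Of the genes that finish the lagging strand, Lig1, the ligase, read 9.93, 9.35, 9.15 and 9.14, so that the cerebellum stood above 3 similar regions. Rpa2, a subunit of the protein that coats single-stranded DNA, read 9.53, 9.29, 8.51 and 8.90, lowest in the pontine nucleus by 0.39. Fen1, the flap endonuclease, read 8.23, 8.24, 7.81 and 7.84, with a high pair and a low pair of regions and no separation within either.

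Genes that rebuild chromatin behind the fork showed the same arrangement. Uhrf1, which directs the maintenance DNA methyltransferase to newly copied DNA, read 10.02, 9.32, 8.48 and 8.41, a 3.05-fold difference. Chaf1b and Chaf1a encode subunits of chromatin assembly factor 1, which places histones on new DNA. Chaf1b read 10.03, 9.64, 8.89 and 8.95, and Chaf1a read 8.88, 8.53, 8.25 and 8.09. Ung, the glycosylase that removes uracil from DNA, read 8.67, 8.39, 8.0 and 8.19, a 1.39-fold difference.

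**Figure D3:**
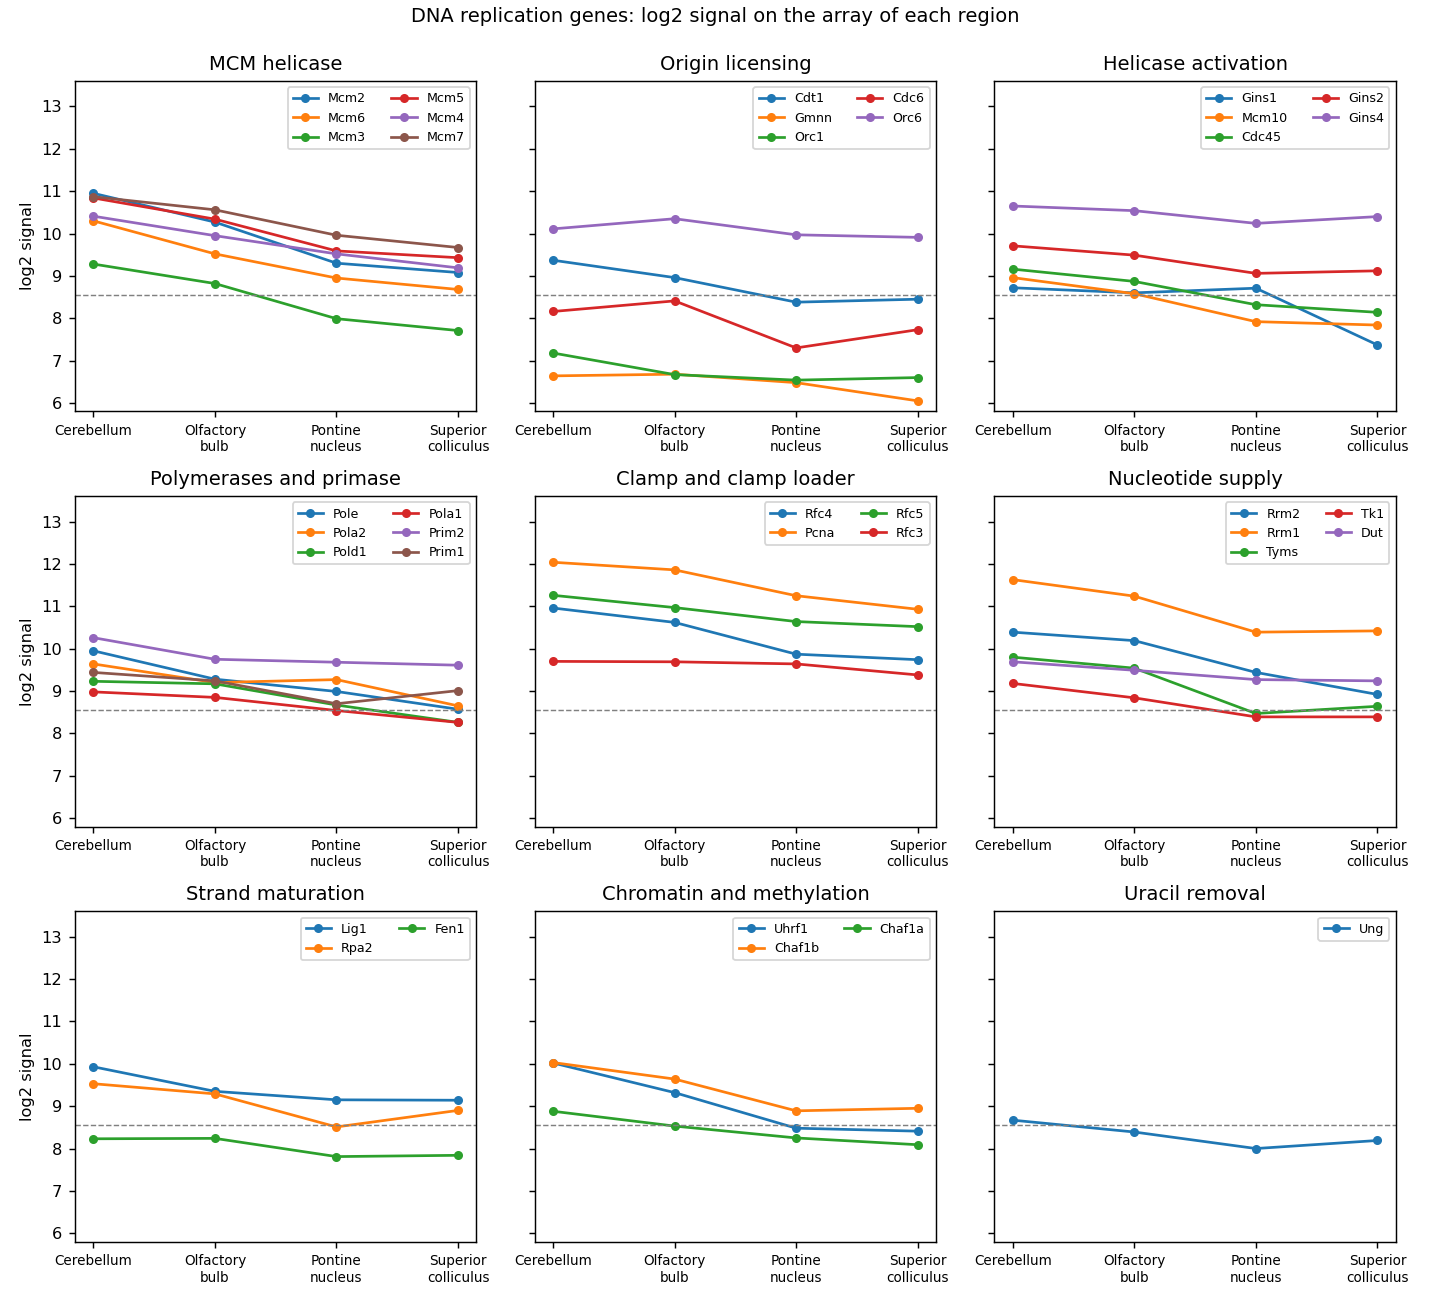
Each panel shows the genes of 1 role, with log2 signal on the vertical axis and the array of each region on the horizontal axis; each line is 1 gene and the dashed line is the level floor of 8.56. The pontine nucleus lies below the cerebellum for all 38 genes (Gins1 by 0.01), although Orc6, Cdc6, Gmnn and Fen1 peak in the bulb and Gins1 and Pola2 go up from the bulb to the pontine nucleus; the last segment goes up for 12 genes, such as Cdc6 and Prim1. Heights of different genes are not comparable, since probe sets differ in response.

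The roles thus differed in how far the regions stood apart. The median cerebellum minus superior colliculus difference was 1.49 for the helicase ring, 1.16 for nucleotide supply, 1.08 for chromatin and methylation, 1.02 for helicase activation, 0.925 for clamp and loader, 0.845 for polymerases and primase, 0.63 for strand maturation and 0.58 for origin licensing. Ranges overlapped between most roles, and with 3 to 6 genes each these medians are descriptions of the chosen genes. The range of the helicase ring, from 1.20 to 1.87, lay wholly above that of licensing, from 0.20 to 0.92. The ends of the licensing range were Orc6 and Cdt1, the only 2 of its 5 genes above the level floor. The rest were dim and their differences can be compressed. The median of the 2 genes above the floor was 0.56, beside 0.58 for all 5. The part of low signal in the licensing median was not tested.

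Subunits of the same complexes that are not among the 38 genes were less separated. Of 16 such genes, all above the floor, 3 held the full order, beside 5.06% of genes above the floor. The 1-unit difference was passed by 1, Pole2, beside 3.08%. The median difference was 0.165, beside 0.945 in the 38 and 0.02 over all genes. The cerebellum was highest for 6 of the 16, beside 17.9% of genes above the floor. As among the 38, the superior colliculus was often lowest, for 10 of the 16, beside 22.4%. The cerebellum was above the superior colliculus for 13, beside 42.5%, and below it for 3. Both the cerebellum and the bulb lay above both other regions for 7, beside 20.9%. The subunits of DNA polymerase epsilon not among the 38 differed from each other. Pole2 read 8.91, 8.43, 8.41 and 7.64 and was lowest in the superior colliculus, whereas Pole4, a small histone-fold subunit, read 10.75, 11.07, 10.92 and 11.21 and was highest in the superior colliculus. Pold1 had the largest difference among the subunits of polymerase delta, with Pold2 at 0.40, Pold3 at 0.14 and Pold4 at -0.06. In ribonucleotide reductase, Rrm2b, the alternative small subunit used for DNA repair and mitochondrial DNA outside S phase, differed by -0.06 beside 1.47 for Rrm2.

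Most subunits of the origin recognition complex had small differences. Orc3, Orc4 and Orc5 differed by 0.04, 0.06 and 0.08 between cerebellum and superior colliculus, and Orc2 by 0.53. Unlike any of the 38 genes, Orc2, Orc3 and Orc4 were highest in the pontine nucleus. Orc5 was highest in the bulb, as were Orc6, Cdc6, Gmnn and Fen1 of the 38. Rfc1 and Gins3, at 0.66 and 0.62, lay within the range of the listed subunits of their complexes, and Rfc2, at 0.19 and highest in the bulb, lay below that of the clamp loader. The choice of the 38 genes was made with earlier results on these arrays known, so the contrast with these other subunits is a description.

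**Figure D4:**
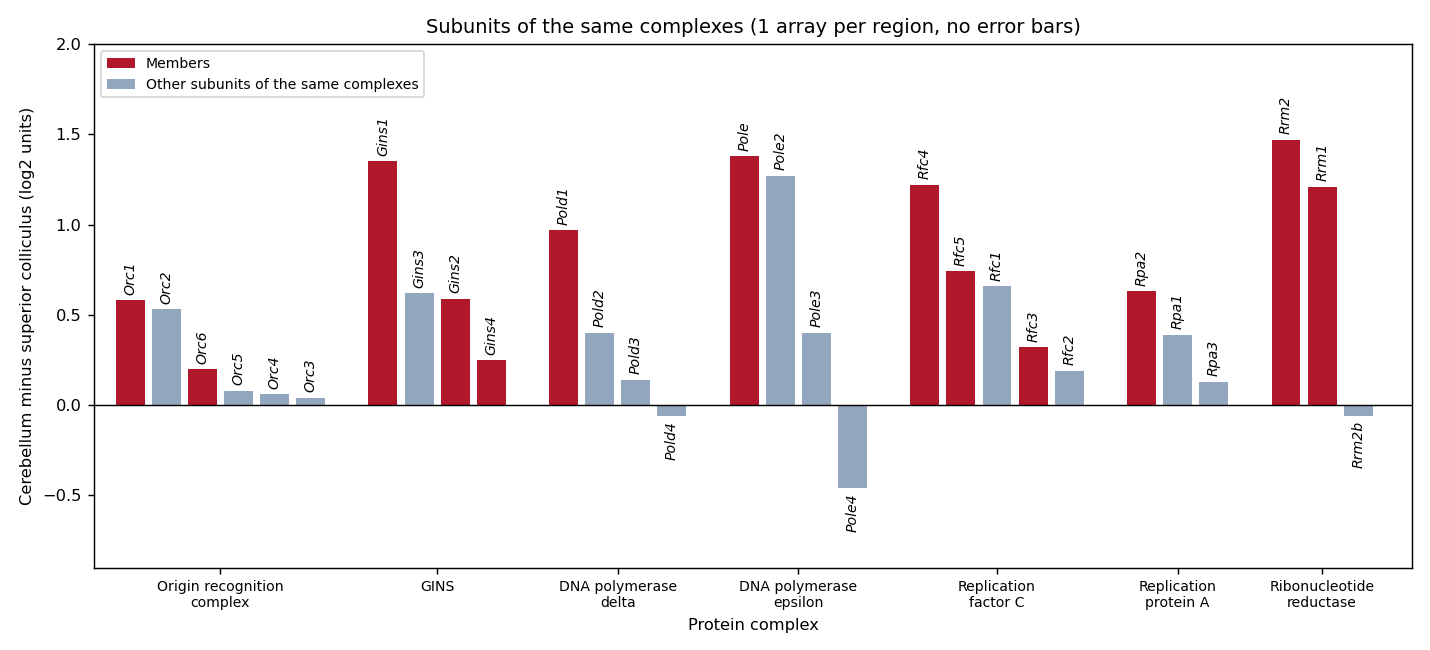
Bars give the cerebellum minus superior colliculus difference in log2 units for each subunit of 7 complexes, red for the 38 genes and grey-blue for other subunits; there are no error bars because each region has 1 array. In polymerase epsilon the bars run from 1.38 for Pole to -0.46 for Pole4, and in ribonucleotide reductase from 1.47 for Rrm2 to -0.06 for Rrm2b.

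Other genes of the replication pathway were arranged alike but less steeply. Of 39 measured, 17 held the full order, 27 had both the cerebellum and the bulb above the other regions, and 6 passed the 1-unit difference, with a median of 0.47. Above the level floor these were 31 genes with 11 in the full order and a median of 0.37. The largest difference was that of Dtl, the substrate receptor that marks Cdt1 for destruction in S phase, which read 9.92, 8.96, 7.81 and 7.59, wider than any of the 38. Ticrr, which acts in the firing of origins, differed by 1.78 and the histone chaperone gene Asf1b by 1.59. At the other end were Tk2, the mitochondrial thymidine kinase, at -0.34, the fork protein gene Donson at -0.27, and Ctc1, a gene of telomere replication, at 0.04.

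Genes that govern entry into S phase included the E2F factors. E2f1 read 10.85, 10.23, 9.91 and 8.90, a cerebellum to superior colliculus difference of 1.95. E2f8, E2f3 and E2f7 differed by 1.59, 0.94 and 0.85. E2f5, E2f4 and E2f6 differed by 0.50, 0.26 and 0.25, and E2f2, below the level floor, by 0.60. The widest differences were those of Ccna2 (cyclin A) at 2.16 and its partner kinase gene Cdk1 at 1.99. Of 25 measured genes of this list, 10 held the full order and 10 passed the 1-unit difference, with a median of 0.85. Members of the retinoblastoma family differed from each other, with Rb1 at 0.18, Rbl2 at -0.16 and Rbl1 at 0.88. Among the Cdk inhibitor genes, Cdkn2c differed by 1.5, Cdkn1c by 0.72, Cdkn1b by 0.29 and Cdkn2d by -0.19.

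Mitotic genes were the closest list in order and the steeper in size. All 14 measured held the full order and all 14 passed the 1-unit difference, with a median of 2.02, from 1.27 for Birc5 to 2.37 for the spindle motor gene Kif11. Their median step from bulb to pontine nucleus was 1.205, beside 0.475 for the replication genes, while the step from cerebellum to bulb was 0.415 beside 0.30. None of the 13 mitotic genes with a promoter window held the E2F words, and 8 (61.5%) held the CHR letters.

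Markers of cell types moved with these values in part. Granule cell precursor genes had mean log2 levels of 11.14, 9.56, 9.94 and 9.57. Highest in the cerebellum were 6 of 9, beside 17.9% of genes above the floor. The widest differences from the superior colliculus were those of Atoh1 at 3.50 and Mfap4 at 3.28. Barhl1, Zic1 and Pax6 were highest in the pontine nucleus, at 12.50, 13.36 and 11.76, beside 11.25, 12.90 and 11.64 in the cerebellum. Barhl1 was also among the pontine marker genes, so this list is not particular to granule cell precursors. None of the 9 held the full order. Radial glia genes had means of 11.11, 10.70, 10.26 and 10.58, with 7 of 10 highest in the cerebellum, beside the same 17.9%. Slc1a3 was the 1 of 10 in the full order. Pax3, at 10.59, 7.12, 7.75 and 9.75, lowered the bulb mean of this list. The list median was 0.205 for cerebellum minus bulb and also 0.205 for bulb minus superior colliculus. Bulb interneuron precursor genes had means of 7.53, 10.33, 7.37 and 7.45, so they were high in the bulb, where the replication genes were mostly second. The part of these cell types in the replication signal was not tested.

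In the remaining marker lists at most 1 gene held the full order. Postmitotic neuron genes had means of 12.41, 12.25, 12.59 and 12.46, and 11 of 14 were lower in the cerebellum than in the superior colliculus, with Nefm an exception at 1.81. Endothelial genes were lower in the cerebellum for 8 of 8, with means of 8.89, 9.12, 9.10 and 9.08. Oligodendrocyte precursor genes had means of 9.42, 9.04, 9.34 and 9.35, lowest in the bulb, and microglial genes 8.50, 8.60, 8.38 and 8.50. Meningeal and fibroblast genes had means of 7.95, 8.87, 7.81 and 8.13, and erythroid genes of 8.37, 8.52, 8.21 and 8.24, both highest in the bulb.

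**Figure D5:**
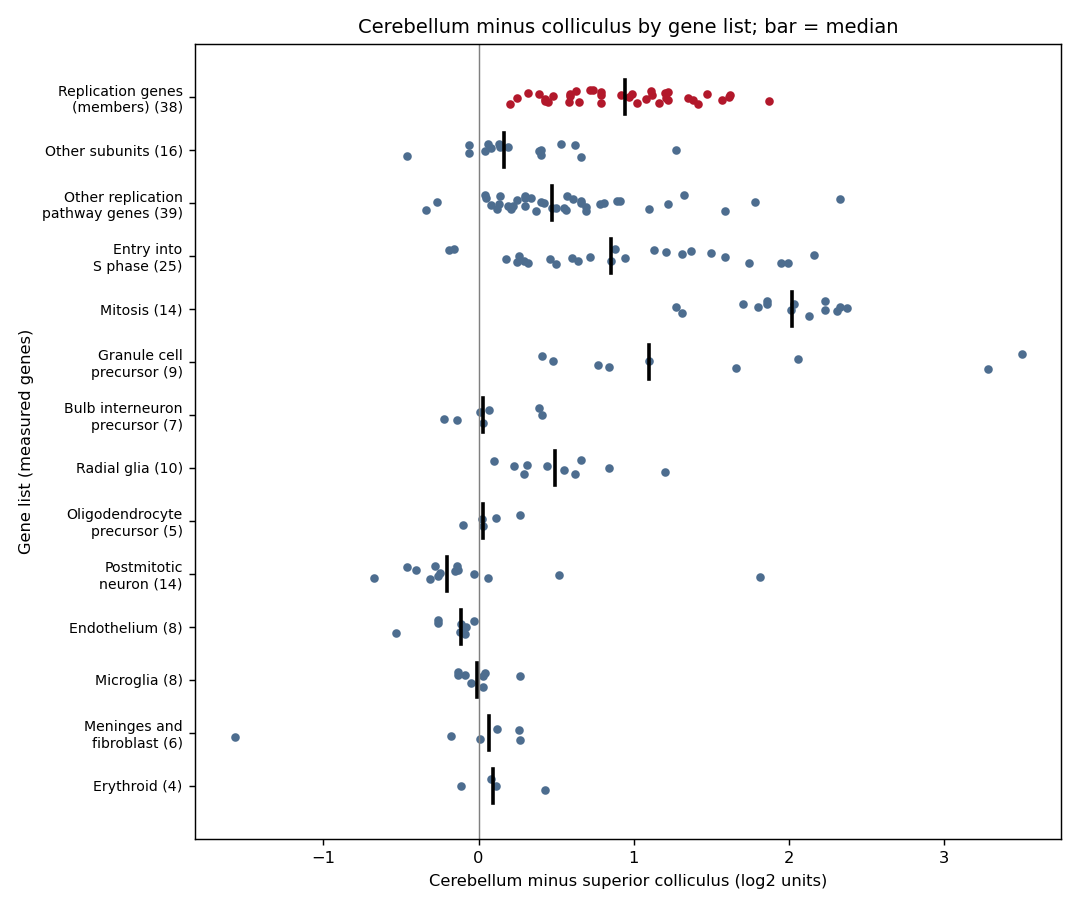
Each point is 1 measured gene, placed by its cerebellum minus superior colliculus difference in log2 units, and black bars mark list medians; the number of genes is given after each list name. All 38 replication genes lie to the right of 0 with a median of 0.945, the mitotic genes lie further right with a median of 2.02, and endothelial genes lie to the left of 0.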

How the data were processed

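Gene expression was measured on 4 Affymetrix arrays, 1 per brain region. The deposited table held log2 signals with 2 decimals, from 2.43 to 14.57; the log2 scale was inferred from that range. The submitters' processing notes name the Affymetrix Expression Console; for its version, summarisation, normalization and the build, nothing is given in the sources used here. Array medians lay between 8.07 and 8.13, so the authors' values were taken as scaled, which can remove a difference in total RNA between regions.

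Probe sets were named through the platform annotation of 2016: 21789 of 35556 had 1 symbol, 1621 had several and 12146 had no entry and are unnamed here. Of the first, 21698 matched RefSeq by Entrez ID, with 0 symbols changed. Where a gene had several probe sets (999 genes), the one with the highest mean was used; 36 of the 38 genes had a single one. No coordinates are given for probe sets, since no build is named.

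No test was possible. Regional orders, differences past 1 log2 unit and medians were computed for the group and for all genes. The members, lists and rules were chosen with earlier results of these data known. Values on all arrays are printed for the largest and smallest difference of each role, for genes outside the commonest order and for those below the floor; Mcm6 and Pcna were added after their values were seen. Of other lists, up to 3 genes with the largest and 3 with the smallest difference above the floor were named, and the E2F, retinoblastoma family, Cdk inhibitor, Orc and other subunit genes beside them were chosen after their values were seen. The calculation was tested on simulated data. Python 3.11.15, NumPy 2.4.6, pandas 2.3.3 and Matplotlib 3.10.9 were used.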

Additional observations from a re-analysis of the deposited data

How the results depend on the processing

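No alternative turned the sign of a median or of any of the 152 recomputed gene differences, of which 150 moved by at most 0.17 log2 units, the SD of the background genes for that difference. The exceptions were Tk1 with the mean of its probe sets (1.12) and with its dimmer probe set (1.45). Most of this stability was fixed in advance. The probe set alternatives could not move the 36 genes with a single probe set, and centring shifted every gene alike. For those 36 genes only quantile normalization could act gene by gene. With the level floor at the 75th percentile 13 of the 38 genes remained, of which 10 held the full order, 12 were highest in the cerebellum, 11 were lowest in the superior colliculus and 9 passed the 1-unit difference. The counts above the usual floor were 21, 33, 24 and 17 of 34. The lower counts follow from the fewer genes kept. The median cerebellum minus superior colliculus difference was then 1.21 instead of 1.005, and that of the genes of entry into S phase 1.22 instead of 0.88. Requiring each neighbouring step to reach 0.25 log2 units left 5 genes in the full order, beside 0.550% of genes above the floor, and a difference of 1.5 log2 units was reached by 4, beside 1.45%. Quantile normalization and centring on genes above the floor gave 20 and 22 genes in the full order and moved the median of all genes by at most 0.035. No paired analysis was possible because each region has 1 array. The number of arrays and the background signal of dim genes limit precision.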

Other observations

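Genes outside the lists were ranked by how near their 4 levels, each taken from the gene's own mean, lay to the median profile of the 38 replication genes (0.48, 0.21, -0.29 and -0.42 log2 units in the cerebellum, olfactory bulb, pontine nucleus and superior colliculus). The 10 nearest among genes above the level floor were Cln6, Hnrnpf, H2az1, H2ac15, Wdr76, Espl1, Spidr, Rasl11b, Itga4 and Gng5, at root mean square distances of 0.0118 to 0.0564. All 10 held the full order, which was largely fixed by the ranking, since the median profile is itself in that order. H2az1, a histone variant gene, read 12.32, 12.09, 11.54 and 11.45, and H2ac15, a core histone gene, read 13.02, 12.81, 12.23 and 12.13. Espl1, which encodes the protease separase that parts sister chromatids, read 8.85, 8.55, 8.15 and 8.0. The likeness rests on 4 arrays. The replication genes themselves lay at distances of 0.0473 to 0.433 from their own median profile, with Gins1 the farthest.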
